A study of Mus musculus with 6 samples.

Results

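MYB and the MYC/MAX network are a group of DNA-binding factors that set how strongly blood progenitors grow and divide. The group was taken as 10 genes by symbol, *Myb*, *Myc*, *Mycn*, *Mycl*, *Max*, *Mxd1*, *Mxd4*, *Mxi1*, *Mnt* and *Mga*, and 9 of them were found among the 12101 genes listed in the deposited table. *Mycl*, under that name or as *Mycl1*, is not listed, so its level is not analysed here. RNA was sequenced from megakaryocyte–erythroid progenitors (MEPs), the bone marrow precursors of megakaryocytes and red blood cells, sorted from adult *Nanog*-tg mice of strain CD-1. All mice of both groups carried 2 transgenes, the dox-responsive activator rtTA at the *Rosa26* locus, which is active throughout the body, and a *Nanog* cDNA under a tetO promoter next to *Col1a1*. The 3 dox-treated libraries came from mice given doxycycline (dox) in the drinking water for 5 days, and the 3 untreated libraries from mice of the same genotype without dox. No group received dox without the *Nanog* transgene, so *Nanog* and dox itself cannot be told apart. The labels do not say whether replicates are single mice or pools, so p-values measure the spread between these libraries, which may be partly technical.

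Values are reads per 1000000 of the library size after normalization (CPM), recovered from deposited log2 values. Libraries held between 11264803 and 16153600 reads on listed genes, and 1 read amounted to 0.0642 to 0.091 CPM. The floor was set at 3 reads, or 0.193 to 0.273 CPM, and covers counting error alone, since PCR copies are not independent molecules. *Nanog* had 15959 to 19609 reads with dox and 1 to 13 reads without, as the labels give it. Dox-treated replicate 3 stood apart from the other dox-treated libraries along the first principal component of all genes, at -14.8 against -57.5 and -56.3, with the untreated libraries between 35.1 and 54.2. Differences were tested with limma over 12088 genes with Benjamini–Hochberg adjustment and a threshold of 0.05, and single genes also had an exact permutation test (two-sided), whose smallest possible p with 3 libraries a group is 0.1.

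MYB is a transcription factor of immature blood cells that keeps progenitors dividing and is shut down as they mature. MYC and its relative MYCN bind DNA only as a dimer with MAX, at a short sequence called the E-box, and activate genes for ribosomes, translation and metabolism. MAX also pairs with MXD1, MXD4, MXI1, MNT and MGA, which occupy the same E-boxes and repress. The share of MAX held by MYC rather than by these partners is therefore thought to set the output of the network. In erythroid and megakaryocytic cells, MYC and MYB decline during maturation while several MXD proteins increase.

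The E-box CACGTG, which reads the same on both strands, was searched in the promoters of the members, from 250 bases before to 50 bases after each start site in RefSeq (GRCm38.p6). Of the 10 members, 9 had an entry in the promoter set used, all except *Myc*, and 3 of these 9 (33.3%) held the motif. Of all 27025 genes with an entry, 8.09% held it. Those include genes outside the deposited table, so the shares were taken over unlike sets. The matches are printed with 12 bases on either side, together with that of *Hspd1*, a MYC target described further on, because they show the letters that MYC–MAX and the repressor dimers share. Capitals mark the E-box.
Max, chr12:76962234-76962263, minus strand: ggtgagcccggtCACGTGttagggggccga
Mnt, chr11:74830789-74830818, plus strand: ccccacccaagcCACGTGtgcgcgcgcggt
Mxd4, chr5:34187912-34187941, minus strand: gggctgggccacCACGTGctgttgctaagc
Hspd1, chr1:55088306-55088335, minus strand: ggccggctgggaCACGTGaaaaggccgcgc
The first base of the motif lay at -3 relative to the start site in *Max*, at -123 in *Mnt*, at -219 in *Mxd4* and at -80 in *Hspd1*. A match describes letters and is not a measured binding site, and binding was not measured here.

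None of the 9 members passed the threshold in limma's test. At an unadjusted p under 0.05 there was 1, *Myc*, beside 29.2% of all genes tested. Of all genes, 4.59% were called higher and 3.18% lower with dox. The groups did not overlap for 3 members, with *Max* and *Mxd4* higher and *Myc* lower in every dox-treated library, beside 17.8% of all genes that were higher without overlap and 18.2% that were lower. The log2 fold change of the members had a median of -0.014, beside -0.026 over all genes. This median lay on either side of 0, from -0.10 without untreated replicate 2 to 0.086 without untreated replicate 1, and at 0.096 with scaling by all reads, which moved all genes alike.

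**Figure D1:**
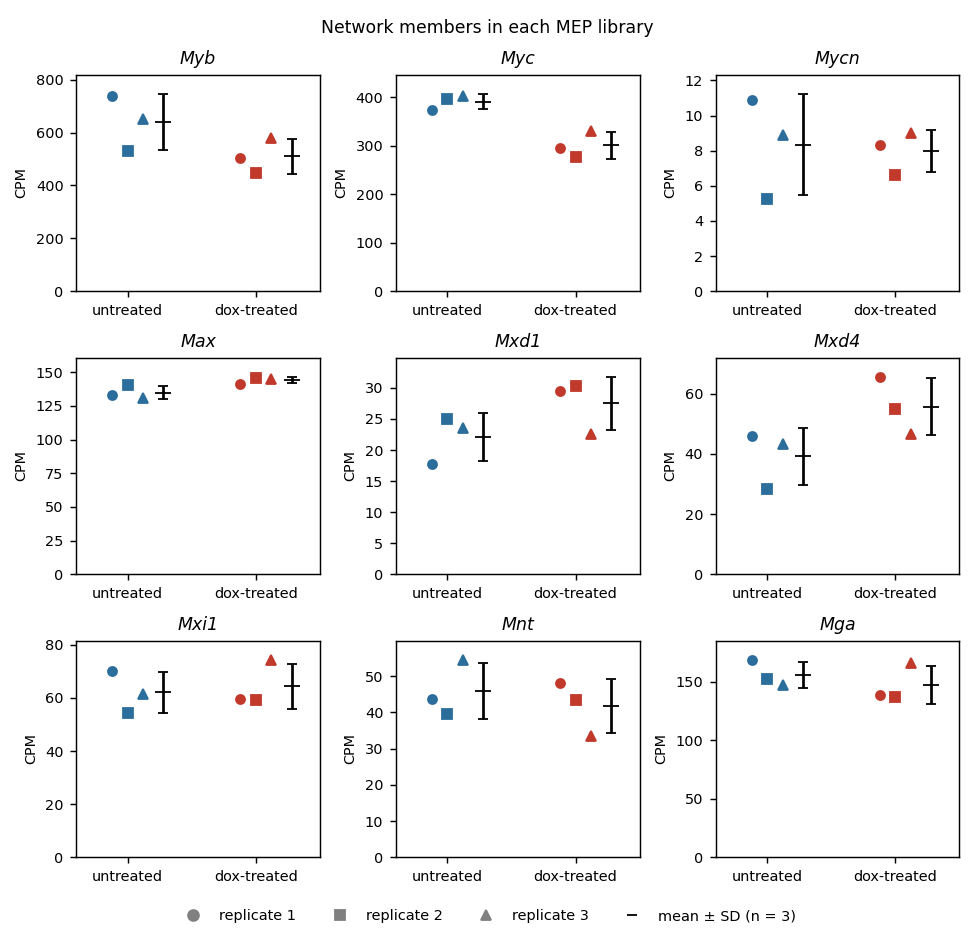
Level in CPM (vertical axes, starting at 0) of the 9 listed members in each library, with symbols for replicates and the mean ± SD of each group beside them (n = 3). *Myc* is lower in all dox-treated libraries than in any untreated one, *Mxd4* and *Max* are higher in all of them, and the groups overlap for the other 6 genes.

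*Myb* (ENSMUSG00000019982) lies on chromosome 10 of NCBIM37 from 20844736 to 20880790, on the minus strand. Its level was 504, 449 and 581 CPM in dox-treated replicates 1, 2 and 3 and 739, 531 and 653 CPM in the untreated ones. Dox-treated replicate 3 was above untreated replicate 2, so the groups overlapped. It averaged 511 ± 66.2 CPM in the dox-treated and 641 ± 104 CPM in the untreated libraries (SD, n = 3 each), a ratio of 0.798. The log2 fold change was -0.32 (SE 0.17, 95% interval -0.73 to 0.093, limma adjusted p = 0.259), and the exact permutation p was 0.2 (two-sided, n = 3 per group). The interval leaves room for no difference and for a decrease by 0.73 on the log2 scale. With array quality weights, which gave dox-treated replicate 3 a weight of 0.163, the adjusted p was 0.0302, the lowest of 15 alternative settings, which reached 0.548, and with quantile normalization the log2 fold change was -0.16. A noncoding RNA annotated on the opposite strand, *Gm16786*, overlaps exons of *Myb*, and whether counting used strand is not given in the sources used here. *Gm16786* had 8 to 25 reads in each library, against 6031 to 9501 for *Myb*.

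*Myc* (ENSMUSG00000022346), the main activator of the network, lies on chromosome 15 from 61816946 to 61821929. It was at 295, 276 and 331 CPM with dox and at 374, 395 and 403 CPM without. Every dox-treated library was below every untreated one, and dox-treated replicate 3 came closest to the untreated libraries. It averaged 301 ± 27.7 CPM in the dox-treated and 391 ± 15 CPM in the untreated libraries (SD, n = 3 each), 0.769 of the untreated level. Its log2 fold change was -0.38 (SE 0.11, 95% interval -0.65 to -0.11), with a limma adjusted p of 0.0887 and an unadjusted p of 0.0141. The exact permutation p was 0.1, the smallest this design allows. The difference thus did not pass over all genes. It passed in 3 of the 15 alternatives, at an adjusted p of 0.00847 with array quality weights, 0.0256 without dox-treated replicate 3 and 0.0425 with a mean-variance trend, and the highest value was 0.271. With quantile normalization the log2 fold change was -0.19.

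*Mycn* (ENSMUSG00000037169), which can stand in for *Myc* in stem cells, was expressed far lower. It had 113, 89 and 140 reads with dox and 140, 71 and 98 without, or 8.32, 6.63 and 8.98 CPM against 10.9, 5.25 and 8.92 CPM. The libraries of the 2 groups were interleaved. The log2 fold change was -0.014 (SE 0.29, 95% interval -0.73 to 0.70, limma adjusted p = 0.978), and its sign turned under several settings. The lowest library, with 71 reads, has a counting error of 11.9%, and the coefficient of variation between untreated libraries was 34.3%.

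*Max* (ENSMUSG00000059436), the common partner on chromosome 12 from 78038256 to 78063235, varied least. It was at 141, 146 and 145 CPM with dox and 133, 140 and 131 CPM without. The groups did not overlap, but the nearest libraries were 141 and 140 CPM. It averaged 144 ± 2.31 CPM in the dox-treated and 135 ± 4.74 CPM in the untreated libraries (SD, n = 3 each), a ratio of 1.07. The log2 fold change was 0.094 (SE 0.092, 95% interval -0.13 to 0.32, limma adjusted p = 0.524), with an exact permutation p of 0.1.

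Of the MXD genes, *Mxd4* (ENSMUSG00000037235), a MAX partner that represses E-box genes, had the highest fold change of the members. It lies on chromosome 5 from 34516536 to 34530369. It was at 65.5, 54.9 and 46.7 CPM with dox and 45.9, 28.4 and 43.4 CPM without, so that the lowest dox-treated library, replicate 3, was just above the highest untreated one. It averaged 55.7 ± 9.39 CPM in the dox-treated and 39.2 ± 9.47 CPM in the untreated libraries (SD, n = 3 each), 1.42 times the untreated level. The log2 fold change was 0.52 (SE 0.23, 95% interval -0.041 to 1.09, limma adjusted p = 0.195), with an exact permutation p of 0.1. The estimate rested in part on untreated replicate 2, without which it was 0.31, with an adjusted p of 0.40. Over the alternatives the adjusted p went from 0.0446, with array quality weights, to 0.438.

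*Mxd1* (ENSMUSG00000001156), a repressor associated with terminal differentiation, was at 29.4, 30.4 and 22.6 CPM with dox and 17.8, 25.1 and 23.5 CPM without. Dox-treated replicates 1 and 2 were above all untreated libraries, and replicate 3 lay among them. The log2 fold change was 0.32 (SE 0.19, 95% interval -0.14 to 0.78, limma adjusted p = 0.307), and with single libraries left out it went from 0.17 without untreated replicate 1 (adjusted p = 0.596) to 0.45 without dox-treated replicate 3 (adjusted p = 0.106). *Mxi1* (ENSMUSG00000025025), the MXD gene first known as an interactor of MAX, was at 59.7, 59.1 and 74.1 CPM with dox and 70.1, 54.5 and 61.5 CPM without. Its groups overlapped throughout, with a log2 fold change of 0.052 (SE 0.15, 95% interval -0.32 to 0.42, limma adjusted p = 0.84). The gene *Gm10197*, annotated on the opposite strand, overlaps exons of *Mxi1* and is not listed.

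*Mnt* (ENSMUSG00000000282), a repressor found in most dividing cells, was at 48.2, 43.3 and 33.6 CPM with dox and 43.7, 39.5 and 54.4 CPM without. Its groups overlapped, and its log2 fold change was -0.14 (SE 0.19, 95% interval -0.61 to 0.33, limma adjusted p = 0.651). *Mga* (ENSMUSG00000033943), a very large MAX partner that takes part in a variant Polycomb complex, was at 139, 137 and 166 CPM with dox and 168, 152 and 147 CPM without. Its groups overlapped too, and its log2 fold change was -0.084 (SE 0.12, 95% interval -0.39 to 0.22, limma adjusted p = 0.676). It went from -0.028 without untreated replicate 1 to -0.17 without dox-treated replicate 3. The intervals of *Mxi1* and *Mga* exclude a difference above 0.42 on the log2 scale in either direction, whereas those of *Mycn*, *Mnt* and *Mxd1* are wider.

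**Figure D2:**
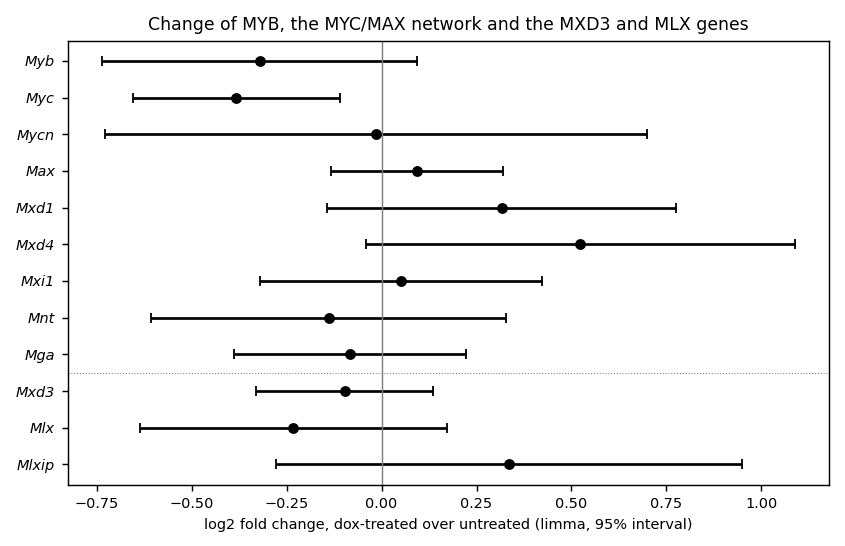
Log2 fold change of dox-treated over untreated libraries (horizontal axis) with its 95% interval from limma, for the 9 members and, under the dotted line, *Mxd3*, *Mlx* and *Mlxip*. The interval of *Myc* alone excludes 0, before adjustment over all genes. That of *Mxd4* starts just below 0, at -0.041, and ends at 1.09.

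Dox-treated replicate 3 was the dox-treated library nearest to the untreated mean on the log2 scale for *Myb*, *Myc*, *Mxd1*, *Mxd4* and *Mga*. For *Mycn*, *Max* and *Mxi1* this was replicate 1, and for *Mnt* replicate 2. The same replicate 3 had the lowest summed level of megakaryocyte markers with dox, 130 CPM against 428 and 438, beside 87.8 to 126 CPM without. *Itga2b*, with a mean of 233 CPM with dox and 33.6 CPM without, made up most of the mean sum with dox but not without. Of the 9 listed markers 3 were called higher and 1, *Vwf*, lower, with 3 in all below 0. The summed level of erythroid markers in dox-treated replicate 3 was 7595 CPM against 4431 and 4634, beside 6033 to 6266 CPM without. *Car1* and *Aqp1* made up most of it, while 7 of the 11 markers were below 0 and 1, *Ermap*, was called lower. Markers of granulocytes and monocytes summed to 558 to 811 CPM with dox and 2570 to 5937 CPM without, with 12 of 15 called lower. Their part in the levels of the members was not tested. In bulk RNA from sorted cells, fewer cells of a type and less RNA per cell cannot be told apart. All 11 erythroid and all 15 granulocyte and monocyte markers were listed, and 9 of 11 megakaryocyte markers, all except *Ppbp* and *Gp6*.

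Levels can be compared between genes only per length, so CPM was divided by the length of each gene's merged exons in kb. Merged exons span all annotated transcripts, so a gene's level is understated where a shorter transcript is expressed. Other lengths were not tried. In untreated MEPs *Myb* was the highest at 170 ± 27.7 CPM per kb (SD, n = 3), followed by *Myc* at 144 ± 5.51 CPM per kb, and the libraries of these 2 genes overlapped. *Max* came next at 67.3 ± 2.36 CPM per kb, below *Myc* and above the repressors in every library. *Mxi1*, *Mga*, *Mxd4* and *Mnt* had means of 11, 10.2, 10.1 and 9.91 CPM per kb, and neighbours in this order overlapped. *Mxd1* was lower at 4.74 ± 0.817 CPM per kb, and *Mycn* was the lowest at 2.54 ± 0.869 CPM per kb. *Myc* and *Myb* were thus the abundant transcripts of the group in these progenitors, and each repressor was present at a small share of the level of *Max*.

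With dox the first 3 places were the same, *Myb* at 135 ± 17.5, *Myc* at 111 ± 10.2 and *Max* at 71.8 ± 1.15 CPM per kb (SD, n = 3). *Mxd4* came directly after *Max*, at 14.4 ± 2.42 CPM per kb. It was followed by *Mxi1* at 11.5, *Mga* at 9.61 and *Mnt* at 9.02 CPM per kb, and neighbours among these 4 overlapped. *Mxd1* and *Mycn* were again the lowest, at 5.90 and 2.42 CPM per kb. As *Mxd4* overlapped *Mxi1* in both groups, the difference in its rank is no larger than the spread between libraries.

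**Figure D3:**
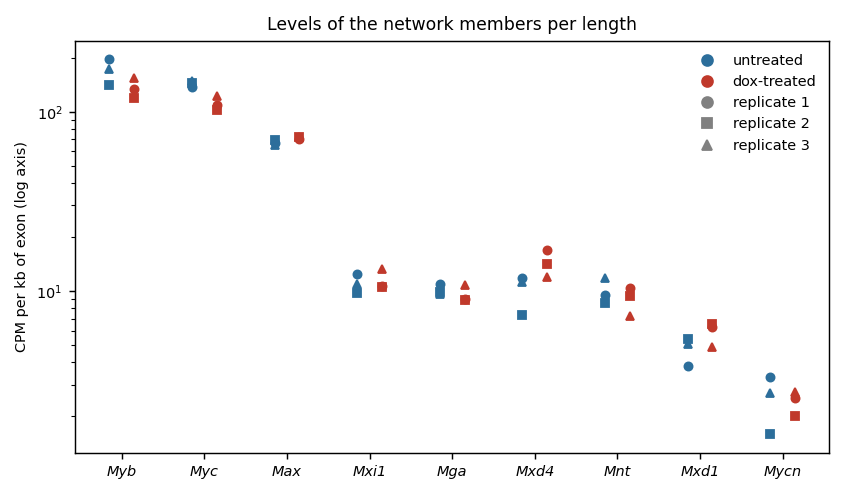
Level per length in CPM per kb of exon (vertical log axis) of each member in every library, ordered by the untreated mean. *Myb*, *Myc* and *Max* lie above the 6 other genes in all libraries, and *Mycn* is the lowest by its mean in both groups.

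Because MYC and its antagonists share MAX, ratios of their levels per kb were computed within each library, which do not depend on a library's scaling factor. The ratio of *Myc* to *Max* was 1.54, 1.40 and 1.69 in the dox-treated libraries and 2.07, 2.08 and 2.27 in the untreated ones. Every dox-treated ratio was below every untreated one, with means of 1.54 ± 0.143 and 2.14 ± 0.111 (SD, n = 3). As *Myc* was lower and *Max* higher in every dox-treated library, this separation follows from the single levels and adds nothing to them. The ratios were formed after the levels were seen and are given without a test.

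The ratio of *Myc* to *Mxd4* was 6.43, 7.18 and 10.1 with dox and 11.7, 19.9 and 13.3 without. The groups did not overlap, which likewise follows from the single levels of *Myc* and *Mxd4*. Dox-treated replicate 3 was the nearest to the untreated libraries. The ratio of *Myc* to the sum of *Mxd1*, *Mxd4*, *Mxi1*, *Mnt* and *Mga* was 2.04, 2.05 and 2.53 with dox and 2.84, 3.56 and 3.06 without, with no overlap. By contrast, the ratio of *Max* to the same sum overlapped, at 1.43 ± 0.0939 with dox and 1.48 ± 0.205 without (SD, n = 3). The ratio of *Myc* to *Mycn* overlapped as well, at 46 ± 3.99 and 62.6 ± 25.7. In RNA, *Myc* was therefore above the summed repressors in every library of both groups, by a smaller factor in the dox-treated ones. Protein was not measured here.

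**Figure D4:**
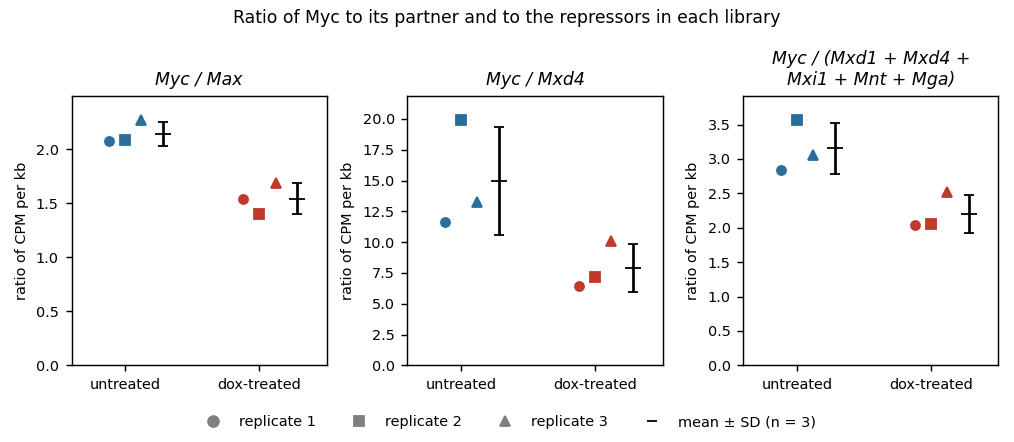
Ratio of the level of *Myc* per kb to that of *Max*, of *Mxd4* and of the 5 summed repressors (vertical axes, starting at 0) in each library, with the mean ± SD (n = 3). In all 3 panels the dox-treated libraries lie below the untreated ones, and dox-treated replicate 3 is the highest dox-treated library. For *Max* and *Mxd4* the separation follows from the levels of the single genes.

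The network extends to *Mxd3*, another MXD repressor, and to the MAX-like protein MLX with its glucose-sensing partners MLXIP and MLXIPL. *Mlxipl* is not listed, and none of the other 3 passed the threshold. *Mxd3* was at 6.26, 6.03 and 5.71 CPM with dox and 6.53, 6.43 and 6.28 CPM without, a log2 fold change of -0.097 (limma adjusted p = 0.521), which was 0.013 when libraries were scaled by all reads and -0.40 with quantile normalization. *Mlx* was at 38.1, 40.7 and 49.9 CPM with dox and 51.5, 57 and 42.7 CPM without, a log2 fold change of -0.23 (limma adjusted p = 0.383), from -0.14 without untreated replicate 2 to -0.35 without untreated replicate 3. *Mlxip* was at 112, 116 and 65.2 CPM with dox and 67.5, 72.8 and 85.5 CPM without. Its dox-treated replicates 1 and 2 were above all untreated libraries and replicate 3 below them. Its log2 fold change was 0.34 (limma adjusted p = 0.406). It was 0.60 without dox-treated replicate 3 (adjusted p = 0.031), 0.21 without dox-treated replicate 1 and 0.19 without dox-treated replicate 2, and over the alternatives the adjusted p went from 0.0286 to 0.734.

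Among 22 cofactors and regulators of MYC stability, *Usp28*, a deubiquitinase that removes ubiquitin from MYC, rose with dox, and none fell. That is 1 of 22, beside 4.59% of all genes called higher and 3.18% called lower. It was at 18.1, 20.9 and 14.2 CPM with dox and 7.93, 6.43 and 7.10 CPM without. All dox-treated libraries were above the untreated ones. It averaged 17.8 ± 3.35 CPM against 7.15 ± 0.753 CPM (SD, n = 3 each), and its log2 fold change was 1.29 (SE 0.17, limma adjusted p = 0.0171). The call was lost with the replicate block, where the adjusted p of 0.0818 was the highest over the alternatives, and when any single library other than dox-treated replicate 3 was left out. With block and voom weights it was 0.0225. *Fbxw7*, the ubiquitin ligase subunit that USP28 counters on MYC, had a log2 fold change of 0.048 (SE 0.11, adjusted p = 0.792).

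Of these 22 genes, 15 had a fold change below 0 and 7 above, with a median of -0.11, beside -0.026 over all genes. This median was 0.0001 with scaling by all reads, beside 0.084 over all genes, and -0.0095 with quantiles, beside -0.046. Relative to all genes it was thus -0.084 both as deposited and with scaling by all reads, and 0.036 with quantiles. With an unadjusted p under 0.05 there were 2 above and 5 below, beside 15.6% and 13.6% of all genes. The nearest to the threshold below 0 was the ATPase *Ruvbl2*, a part of MYC's chromatin cofactor complexes, at -0.52 (limma adjusted p = 0.0639). *Sin3b*, a scaffold that MXD proteins bind to repress, was at 0.32 (adjusted p = 0.0855). The large scaffold *Trrap*, the acetyltransferase *Kat5* and the MYC antagonist partner *Zbtb17* were at -0.12, 0.049 and -0.0014.

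Target genes of MYC were taken as a list of 29 genes for ribosome production, nucleotide and polyamine synthesis, translation and the cell cycle, of which 28 were listed, all but *Tert*. With dox, 2 fell and none rose, beside 3.18% and 4.59% of all genes called lower and higher. The fold change was below 0 for 27 of the 28, with a median of -0.41, beside 52.67% of all genes below 0 and a median of -0.026. At an unadjusted p under 0.05 there were 14 genes below 0 and 1 above, beside 13.6% and 15.6% of all genes, and in 15 genes every dox-treated library was below every untreated one, beside 18.2% of all genes. The list was chosen with earlier results of these data known and holds genes that many progenitors co-express, so its counts are a description and not independent evidence.

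*Odc1*, the rate-limiting enzyme of polyamine synthesis, was at 348, 332 and 430 CPM with dox and 590.3, 747 and 592 CPM without. It averaged 369.8 ± 52.8 CPM in the dox-treated and 643 ± 90.1 CPM in the untreated libraries (SD, n = 3 each), so that it fell by 0.80 on the log2 scale (SE 0.16, limma adjusted p = 0.0408). *Hspd1*, the mitochondrial chaperonin whose E-box is printed above, was at 698, 663 and 785 CPM with dox and 1095, 1482 and 1107 CPM without. It fell by 0.77 on the log2 scale (SE 0.16, limma adjusted p = 0.0435), from 1228 ± 220.1 to 715 ± 62.7 CPM (SD, n = 3). In both genes no dox-treated library reached the lowest untreated one, and replicate 3 was the dox-treated library closest to it. With the replicate block the adjusted p was 0.146 for *Odc1* and 0.151 for *Hspd1*, and with block and voom weights 0.0307 and 0.0346. Both calls were lost when any single library other than dox-treated replicate 3 was left out, with adjusted p up to 0.147 and 0.158. Pseudogene copies could share reads with *Hspd1*, and likewise with *Npm1*, *Ptma*, *Ldha* and *Eif4a1*, since how the counting split such reads was not examined.

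Just short of the threshold were *Rrs1*, a ribosome assembly factor, at -0.59 (limma adjusted p = 0.0546), the spermidine synthase gene *Srm* at -0.67 (adjusted p = 0.055) and the nucleolar protein gene *Nolc1* at -0.56 (adjusted p = 0.0705). *Ncl*, the abundant nucleolar protein nucleolin, had a mean of 1479 CPM with dox and 2127 CPM without (log2 fold change -0.51, adjusted p = 0.0969). *Cdk4*, a kinase of the G1 phase, was at -0.41 (adjusted p = 0.107). The smallest decrease by estimate was that of lactate dehydrogenase A, *Ldha*, at -0.061 (adjusted p = 0.802). The 1 gene above 0 was *Ccnd2*, a D-type cyclin, at 0.35 (adjusted p = 0.107), with all dox-treated libraries above the untreated ones.

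The number of targets called depended on the setting, whereas the side of 0 did so little. Between 26 and 27 of the 28 were below 0 under each of the 15 alternatives. Without dox-treated replicate 3, 18 of the 28 were called lower, beside 1687 of all 12088 genes. Array quality weights called 24 lower and 1 higher, beside 2601 and 2515 of all genes. With a mean-variance trend 8 were called lower, beside 747 of all genes, and with voom precision weights 8, beside 570. Quantile normalization called 3 lower and 1 higher, beside 537 and 648. The replicate block gave none, beside 29 of all genes, the block together with voom weights 3, beside 351, and leaving out any other single library gave none, beside 36 to 126 of all genes. Scaling by all reads on listed genes moved the median of all genes from -0.026 to 0.084, and relative to it the median of the targets was -0.38 under both scalings and -0.21 with quantile normalization. Of the 29 genes, 23 had an entry in the promoter set used, and 8 of these (34.8%) held the E-box. They were *Cdk4*, *Eif4a1*, *Eif4e*, *Eif5a*, *Hspd1*, *Ldha*, *Nme1* and *Wdr43*. Of all genes with an entry, listed in the deposited table or not, 8.09% held it. The share was 33.3% of 12 genes with an entry among the relatives and partners of MYB, 13.3% of 15 among the MYB targets and 5.56% of 18 among the MYC cofactors. It was 50% of 4 genes in the extended MAX and MLX network, namely *Mlx* and *Mlxipl*. The 8 MYC targets include *Hspd1*, which fell, and *Ldha*, at -0.061, and the entry of *Odc1* held no match.

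**Figure D5:**
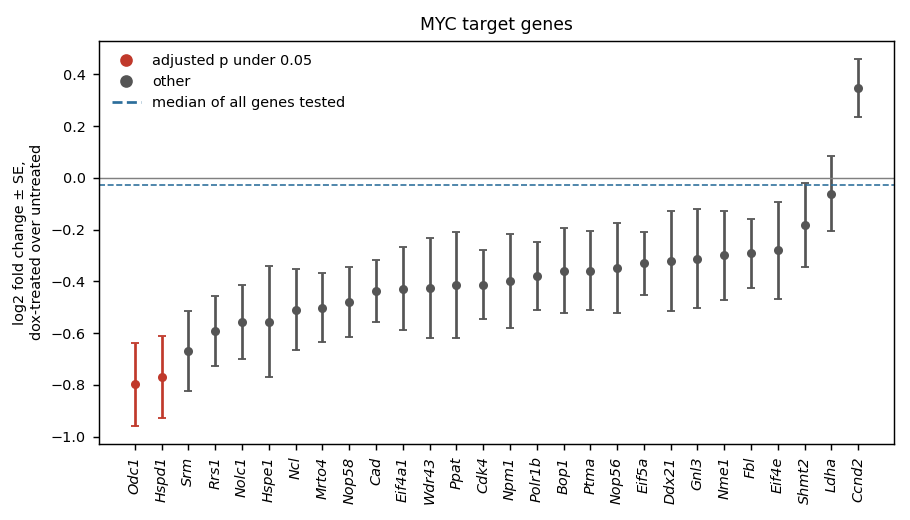
Log2 fold change of dox-treated over untreated libraries (vertical axis, bars ± SE from limma) of the 28 listed MYC target genes, ordered by value. *Odc1* and *Hspd1* in red passed the adjusted threshold, 27 genes lie below 0, and the dashed line is the median of all genes tested, at -0.026.

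Among the relatives and partners of MYB, 2 of 14 genes rose and none fell, beside 4.59% and 3.18% of all genes. *Mybl1*, a MYB family member, had 67, 75 and 74 reads with dox and 41, 31 and 22 without, or 4.93, 5.58 and 4.75 CPM against 3.19, 2.29 and 2.0 CPM. All dox-treated libraries were above the untreated ones, and its log2 fold change was 1.04 (SE 0.19, limma adjusted p = 0.035), at levels far below those of *Myb*. *Nlk*, a kinase that marks MYB for degradation, was at 44.3, 45.6 and 49.3 CPM with dox and 33.4, 31 and 31.4 CPM without, a log2 fold change of 0.54 (SE 0.10, limma adjusted p = 0.0355). With the replicate block the adjusted p was 0.107 for *Mybl1* and 0.163 for *Nlk*, and with voom weights added 0.133 and 0.0663. Over the alternatives, adjusted p went from 0.00685 to 0.133 for *Mybl1* and from 0.00507 to 0.163 for *Nlk*. Leaving out dox-treated replicate 1 or 2 or untreated replicate 2 or 3 ended both calls, and leaving out untreated replicate 1 that of *Nlk*.

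The other family member, *Mybl2*, which serves in cell division, had a mean of 108 CPM with dox and 138 CPM without (log2 fold change -0.36, limma adjusted p = 0.130). *Mybbp1a*, a nucleolar protein that binds MYB, was at -0.42 (adjusted p = 0.0882) and *Hipk2*, another kinase acting on MYB, at 0.66 (adjusted p = 0.115). The coactivators *Ep300* and *Crebbp*, which MYB recruits, were at 0.045 and 0.15, with adjusted p of 0.815 and 0.720. The histone methyltransferase *Kmt2a*, annotated as *Mll1* in NCBIM37, was at 0.37 (adjusted p = 0.408). Of the 14 genes 8 lay above 0 and 6 below, with a median of 0.096. This median was 0.027 with quantile normalization, 0.025 without dox-treated replicate 1, -0.0025 without dox-treated replicate 2 and 0.063 without untreated replicate 3. With scaling by all reads, which moved all genes alike, it was 0.21.

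Of 16 reported target genes of MYB, 15 were listed, all but *Adora2b*. Of these 1 rose and 2 fell, beside 4.59% and 3.18% of all genes. Both that fell are also granulocyte markers. *Elane*, which encodes neutrophil elastase, was at 61.4, 75.9 and 41.1 CPM with dox and 743, 361 and 575 CPM without, and fell by 3.22 on the log2 scale (SE 0.34, limma adjusted p = 0.0108). *Mpo*, the myeloperoxidase of the same granules, was at 506, 460.4 and 324 CPM with dox and 3347, 1470 and 2477 CPM without, and fell by 2.45 (SE 0.34, limma adjusted p = 0.0177). The 15 listed granulocyte and monocyte markers, which include both, all had fold changes below 0, so that these targets moved together with that marker list, whose part was not tested.

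*Gata3*, a factor of T cells and early progenitors that MYB activates in lymphoid cells, rose. It had 479, 444 and 190 reads with dox and 19, 27 and 40 without, or 35.3, 33.1 and 12.2 CPM against 1.48, 1.99 and 3.64 CPM. All dox-treated libraries were above the untreated ones, with replicate 3 the nearest to them, and the log2 fold change was 3.43 (SE 0.52, limma adjusted p = 0.0218). No listed lymphoid marker passed the threshold, and their summed level was 13.7 to 35.7 CPM with dox and 11.6 to 21.8 CPM without. Of that list *Pax5*, *Ms4a1* and the CD3 genes *Cd3e*, *Cd3d* and *Cd3g* are not listed. Mast cell and basophil markers, of which 4 of 9 were listed, summed to 60.8 to 81.5 CPM with dox and 10.8 to 18.7 CPM without, with 2 above 0, both called higher, and 2 below 0, *Gzmb* with a mean of 0.42 CPM with dox and 3.26 CPM without (limma adjusted p = 0.0525) and *Mcpt8* with 1.05 and 1.95 CPM (adjusted p = 0.201). Their part in the level of *Gata3* was not tested. Under the replicate block, *Elane*, *Mpo* and *Gata3* had adjusted p of 0.0599, 0.0645 and 0.0965, and with voom weights added 0.0025, 0.0028 and 0.00997. Each of the 3 calls was also lost without untreated replicate 3, those of *Mpo* and *Gata3* also without dox-treated replicate 1, dox-treated replicate 2 or untreated replicate 1, and that of *Gata3* without untreated replicate 2. Over the alternatives the adjusted p of *Elane* went from 0.00122 to 0.0599, that of *Mpo* from 0.00205 to 0.073 and that of *Gata3* from 0.00205 to 0.0965.

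The other MYB targets had values on both sides of 0. The stem cell factor receptor gene *Kit*, one of the markers used to sort MEPs, had a mean of 316 CPM with dox and 419 CPM without (log2 fold change -0.39, limma adjusted p = 0.189). The erythroid factor *Klf1* had a mean of 232 CPM with dox and 346 CPM without (log2 fold change -0.61, adjusted p = 0.133). *Cd34*, another sorting marker, was at 1.47 (adjusted p = 0.114), and the stem cell markers that include it summed to 120.2 to 294 CPM with dox and 45.5 to 108 CPM without, with none of the 6 listed passing. The cell cycle genes *Ccne1*, *Cdk6* and *Ccnb1* were at -0.85 (adjusted p = 0.0762), 0.57 (adjusted p = 0.139) and -0.15 (adjusted p = 0.672). Over the 15 genes the median was -0.15, with 9 below 0 and 6 above. It was -0.026 without dox-treated replicate 1, -0.035 without dox-treated replicate 2 and -0.32 with array quality weights. With quantile normalization it was -0.038, beside -0.046 over all genes. With scaling by all reads, which moved all genes alike, it was -0.035.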

How the data were processed

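RNA from sorted MEPs of 3 dox-treated and 3 untreated *Nanog*-tg replicates was sequenced. The authors trimmed adapters with Cutadapt, estimated expression by RSEM against Ensembl transcripts of NCBIM37, used limma for normalization, and deposited log2 values of CPM with 0.5 reads added. The use of strand is not given in the sources used here. Every listed gene exceeds 1 CPM in at least 2 libraries. Reads were recovered to within 6.6e-09 of whole numbers. Libraries held 11264803 to 16153600 reads.

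The deposited log2 values were fitted with limma (version 3.58.1, R 4.3.3; lmFit, eBayes, no block or weights) for 12088 genes that reached 1 CPM in 3 or more libraries, and p-values were adjusted after Benjamini and Hochberg with a threshold of 0.05. All fold changes are on the scale of log2 with 0.5 reads added, which understates those of low genes. The method was tested on simulated data in which no library stood apart, unlike dox-treated replicate 3 here. Permutation tests and tables used Python 3.11.15, pandas 2.3.3, numpy 2.4.6 and scipy 1.17.1, and figures matplotlib 3.10.9.

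Positions and lengths are from the NCBIM37 annotation, which named 12067 listed genes, and promoters from RefSeq, GRCm38.p6. Older symbols were matched through RefSeq synonyms. Named were all members, the MAX and MLX relatives, *Nanog*, and from each other list the genes that passed the threshold. Other genes were named after their values were seen. The members and lists were chosen with earlier results of these data known.

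Replicates are numbered 1 to 3 in both groups. Deviations of same-numbered libraries correlated at 0.0184, -0.121 and -0.299, and the numbers were taken not to pair libraries. Alternatives changed the filter, pseudocount, scaling, variance model, weights, block and threshold and left out each library. The 2 fits with voom weights were added after seeing the data.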

Additional observations from a re-analysis of the deposited data

How the results depend on the processing

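Of 135 fold changes of members over 15 alternatives, 118 kept their sign and their side of the threshold, 6 passed it and 11 had the other sign. Among members, 0 passed as reported, 1 with an adjusted p under 0.1 (18.3% of all genes), 1 under a mean-variance trend, 4 (*Myb*, *Myc*, *Mxd1* and *Mxd4*) when libraries were weighted by array quality and 0 to 1 with a single library left out, the 1 being *Myc* without dox-treated replicate 3. Of the 82 genes in the other lists, 8 passed as reported, 21 with an adjusted p under 0.1, 19 with the trend, 50 with array quality weights, 16 with voom weights, and 0 to 42 with a single library left out, the 42 without dox-treated replicate 3. With the replicate block, 0 members and 0 list genes passed, and over all genes 53 were higher and 29 lower against 555 and 384 without it. With the block and voom weights together, 0 members and 9 list genes passed, with 575 higher and 351 lower over all genes. Array quality weights gave 2515 and 2601, a mean-variance trend 909 and 747, and leaving out dox-treated replicate 3 gave 1801 and 1687. Every other single library left out gave 92 to 143 higher and 36 to 126 lower. The causes were not tested.

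Signs turned for genes near 0. With scaling by all reads *Mycn* was at 0.096, *Mga* at 0.026 and *Mxd3* at 0.013. *Mga* was at 0.026 with quantile normalization, *Mycn* at 0.0098 with voom weights and *Mxi1* at -0.069 with array quality weights. With single libraries left out, *Mycn* went from -0.32 to 0.21, *Mxi1* from -0.055 to 0.14 and *Mnt* from -0.25 to 0.0085. Of 180 fold changes of the other named genes, 131 kept sign and side, 46 lost the threshold, 2 gained it and 1 turned. Counting error in the library with fewest reads was 11.9% for *Mycn* and at most 6.61% for the other members.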
